A study of Mus musculus with 24 samples.

Results

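The response of the FVB mouse cortex to CBE was read from 6 of the 24 arrays of the series, 3 from CBE-treated and 3 from PBS-treated mice. CBE (conduritol B epoxide) is an irreversible inhibitor that blocks the breakdown of glucosylceramide in lysosomes, and is given to mice as a chemical model of neuronopathic Gaucher disease. The FVB CBE mice were males of 18 days that received 25 mg/kg of the compound per day by intraperitoneal injection between postnatal days 8 and 18. The FVB PBS mice were males of the same strain and age that received phosphate-buffered saline over the same days, and the labels call them healthy controls. All 22180 genes that the platform annotation names by a single symbol were tested, each through 1 probe set. The 18 arrays of the other strains (SV129, C57 and C3H, each with CBE and PBS) entered the fit to estimate the spread between arrays and were not compared with FVB. The inhibitor is given to the whole animal, so the model holds no cell-type restriction and no mutation. The labels do not say that every array is a different mouse, so the p-values measure the spread between these arrays.

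In Gaucher disease, glucosylceramide and glucosylsphingosine build up in lysosomes, and in the neuronopathic form neurons die while microglia and astrocytes become reactive. Interferons are secreted proteins that bind receptors on nearby cells and activate Stat and Irf transcription factors. Type I interferons act largely through a DNA element called the interferon-stimulated response element (ISRE), and interferon gamma largely through the gamma-activated site (GAS). The genes they switch on encode antiviral proteins, chemokines and the machinery that presents antigens to T cells. Microglia, astrocytes, endothelial cells and neurons can all respond.

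The deposited values are log2 signals, and the median of all values was 4.18. The cortex label held: Slc17a7, a vesicular glutamate transporter of cortical excitatory neurons, stood between 11.08 and 11.34 in CBE and between 11.11 and 11.37 in PBS, and the cortical transcription factor Tbr1 between 7.74 and 7.95 in CBE and between 7.79 and 7.91 in PBS. Tcf7l2, a marker of thalamus, stayed between 3.98 and 4.07 in CBE and between 4.08 and 4.27 in PBS. One FVB library stood apart: PBS array 1 carried more signal of striatal genes, with Rgs9 at 5.25 to 5.60 on the CBE arrays, against 6.86 on PBS array 1 and 5.46 and 5.50 on the other PBS arrays. A C3H library, CBE array 1, decided how many FVB genes passed through its effect on the spread alone. Values without these 2 libraries are given for many results that they change, though not for every gene. In bulk tissue, more cells of a type and more RNA per cell cannot be told apart.

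CBE raised 30 genes in the FVB cortex past an adjusted p of 0.05 and lowered none (limma, Benjamini-Hochberg over 22180 genes; 0.135% of genes called). At an unadjusted p under 0.05 there were 1390 genes (6.27%), 651 higher in CBE (2.94%) and 739 lower (3.33%), and the median log2 difference of all genes was -0.01, with 10069 of 22180 above 0. Of the 30 genes, 28 stood on the lists used here and 2 stood on none. The 28 were antiviral effectors, interferon-inducible GTPases, chemokines, antigen presentation genes, 1 complement gene and 1 inflammasome protease. The lists hold 817 of the 22180 genes and were chosen with earlier results of these data known, so this count is no test. The log2 differences of the 30 genes ran from 0.57 for Tor3a to 4.37 for Cxcl13, with a median of 1.45. At least 1.5-fold higher were 28 of them, at least 2-fold higher 24 and at least 4-fold higher 7, whereas among all genes 95 (0.428%) were at least 1.5-fold higher and 14 (0.0631%) at least 1.5-fold lower. In each of the 30 genes the 3 CBE arrays lay above the 3 PBS arrays, which was so for 1127 of all genes (5.08%), while in 1320 (5.95%) the 3 CBE arrays lay below. For 9 of the 30, the PBS mean lay under the median of all values, where a signal close to the lower end of the scale can shrink a fold change. An exact permutation test of 3 against 3 arrays cannot go below p = 0.1, so single genes were judged by the fit alone.

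**Figure D1:**
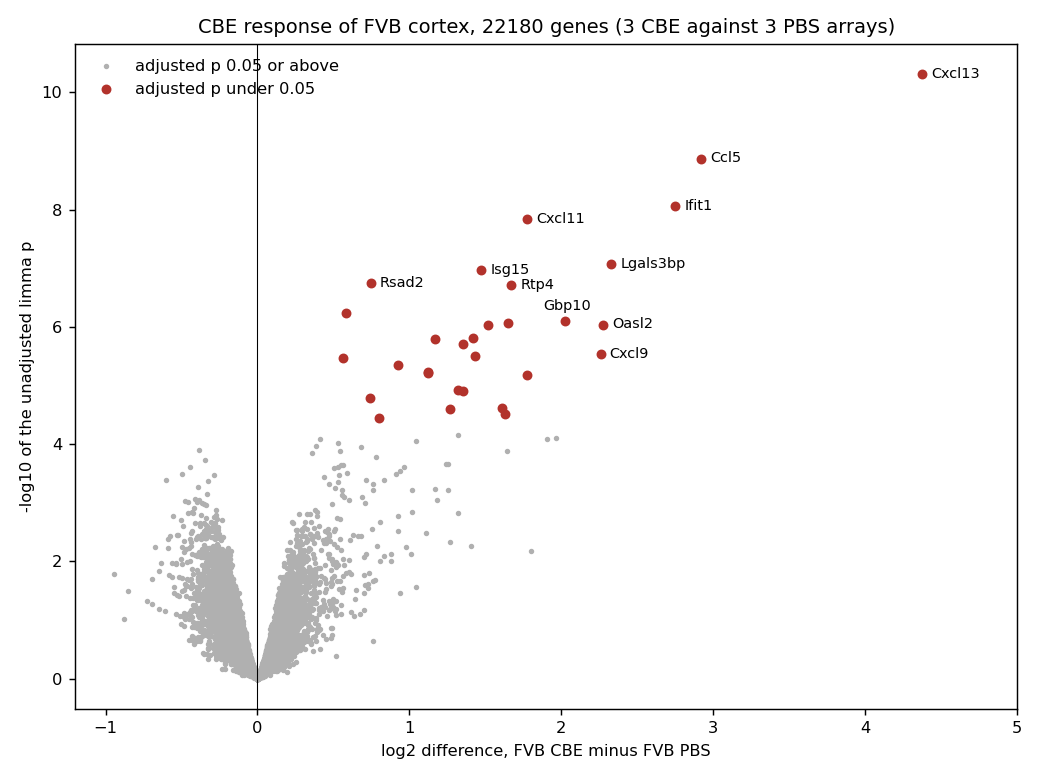
The log2 difference between FVB CBE and FVB PBS (horizontal) is plotted against -log10 of the unadjusted limma p (vertical) for 22180 genes, 1 point each. All 30 genes past the adjusted threshold (red) lie right of 0, with Cxcl13 farthest at 4.37.

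Without C3H CBE array 1, the same contrast called 85 genes, 83 higher (0.374%) and 2 lower (0.00902%), and these held all of the 30. Without FVB PBS array 1 it called 25 genes, 24 higher and 1 lower, of which 23 were among the 30; the lower one was Cypt1. The 7 that did not pass then were Casp1 and Ccl12 (adjusted p = 0.0559 each), H2-Q4 (0.0767), Ifitm3 (0.0873), Gbp3 and Herc6 (0.121 each) and Cxcl16 (0.221, limma). Leaving out one of the other FVB arrays also ended calls, some of them of the same genes. The highest adjusted p over those fits was 0.186 for H2-K1, 0.174 for Ifitm3 and 0.167 for Gbp3 (limma). It was 0.0962 for Gbp7, 0.0937 for Ctss and 0.0706 for Usp18 (limma). For Cxcl16, Herc6 and H2-Q4 it was 0.148, 0.0808 and 0.0542 (limma). H2-K1, Ifitm3, Gbp3, Usp18 and Herc6 had theirs without CBE array 2, and Cxcl16 and H2-Q4 without CBE array 1. Gbp7 had its highest without PBS array 2 and Ctss without PBS array 3. With the 6 FVB arrays alone the fit called 58 genes, 57 higher and 1 lower, and 25 of the 30 were among them. The lower one was Kirrel2, a cell adhesion protein, at 5.19, 5.22 and 5.18 in CBE, against 5.76, 5.82 and 5.67 in PBS, whose log2 difference of -0.56 had an adjusted p of 0.356 with all arrays (limma). Cypt1 and Kirrel2 are named because they were single calls.

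Ifit1, which binds viral RNA that lacks the host's cap methylation, reached 6.93, 7.62 and 7.09 log2 units on the CBE arrays, against 4.40, 4.39 and 4.60 on the PBS arrays. The lowest CBE value stood more than 2 units above the highest PBS value, and the mean was 6.73-fold higher in CBE (log2 difference 2.75 ± 0.30 SE, n = 3 each, adjusted p = 6.44e-05, limma). Oasl2, a member of the oligoadenylate synthetase family, read 5.89, 6.90 and 6.17 in CBE, against 4.14, 4.05 and 3.94 in PBS. It was 4.85-fold higher in CBE (adjusted p = 0.0016, limma), with CBE array 2 the highest and no overlap between the groups. Of the 23 measured Ifit, Oas and other antiviral RNA binders these 2 rose, the median log2 difference was 0.24, and 21 differences were above 0. Without C3H CBE array 1, 5 rose, among them Eif2ak2, the kinase that halts translation on double-stranded RNA, at 0.83 (adjusted p = 0.147 with all arrays and 0.00597 without that array, limma).

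Isg15, a ubiquitin-like protein that is joined to other proteins after interferon exposure, read 6.93, 7.28 and 7.07 in CBE, against 5.73, 5.78 and 5.36 in PBS. Usp18, the protease that takes Isg15 off again and dampens the type I receptor, read 4.88, 5.68 and 5.61 in CBE, against 3.59, 3.63 and 3.62 in PBS. Herc6, the ligase that joins Isg15 to its targets in mice, averaged 7.65 ± 0.09 in CBE and 6.91 ± 0.10 in PBS (SD, n = 3 each). The groups did not overlap for any of these genes, and the log2 differences were 1.47, 1.77 and 0.74 in the order given (adjusted p = 0.000402, 0.00645 and 0.0138, limma). Thus 3 of the 7 measured genes of Isg15 conjugation rose, with a list median of 0.41. Without FVB PBS array 1, Herc6 had an adjusted p of 0.121 (limma). Usp18 varied among the CBE arrays (SD 0.45) and was level among the PBS arrays (SD 0.02).

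Among interferon-induced membrane proteins and other effectors, 6 of 34 rose with all arrays and 9 without C3H CBE array 1. The list median was 0.30, with 30 of 34 above 0. Lgals3bp, a secreted glycoprotein that binds galectins, read 6.81, 7.85 and 7.22 in CBE, against 4.88, 4.90 and 5.10 in PBS, 5.02-fold higher in CBE (adjusted p = 0.000375, limma). CBE array 2 was again the highest. The mean over its probe sets gave a smaller log2 difference, 1.40, than the 2.33 of the brightest probe set, so its size depends on the probe set. Rtp4, a chaperone of membrane receptors, read 6.22, 6.55 and 6.67 in CBE, against 4.80, 4.84 and 4.78 in PBS, with a PBS spread far below the difference of 1.67 (adjusted p = 0.000537, limma). The other members that rose with all arrays were Ifitm3, Ifi27, Rsad2 and Tor3a. Ifitm3, which blocks virus entry from endosomes, gave 1.61 and Ifi27 1.35 (log2 differences, adjusted p = 0.0203 and 0.0027, limma). Rsad2, which makes a nucleotide that stops viral polymerases, gave 0.74, and the torsin-family ATPase Tor3a 0.57 (adjusted p = 0.000537 and 0.00398, limma). Ifitm3 shares sequence with other Ifitm genes, which makes its identity less certain, and it had an adjusted p of 0.0873 without FVB PBS array 1 (limma). With the 6 FVB arrays alone, Tor3a had an adjusted p of 0.0999 (limma). On no list was Rnf213, a giant ubiquitin ligase, at 6.05, 6.30 and 6.12 in CBE, against 4.99, 4.94 and 5.03 in PBS (adjusted p = 0.00241, limma). One further gene of the 30 is a predicted gene with no given name.

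**Figure D2:**
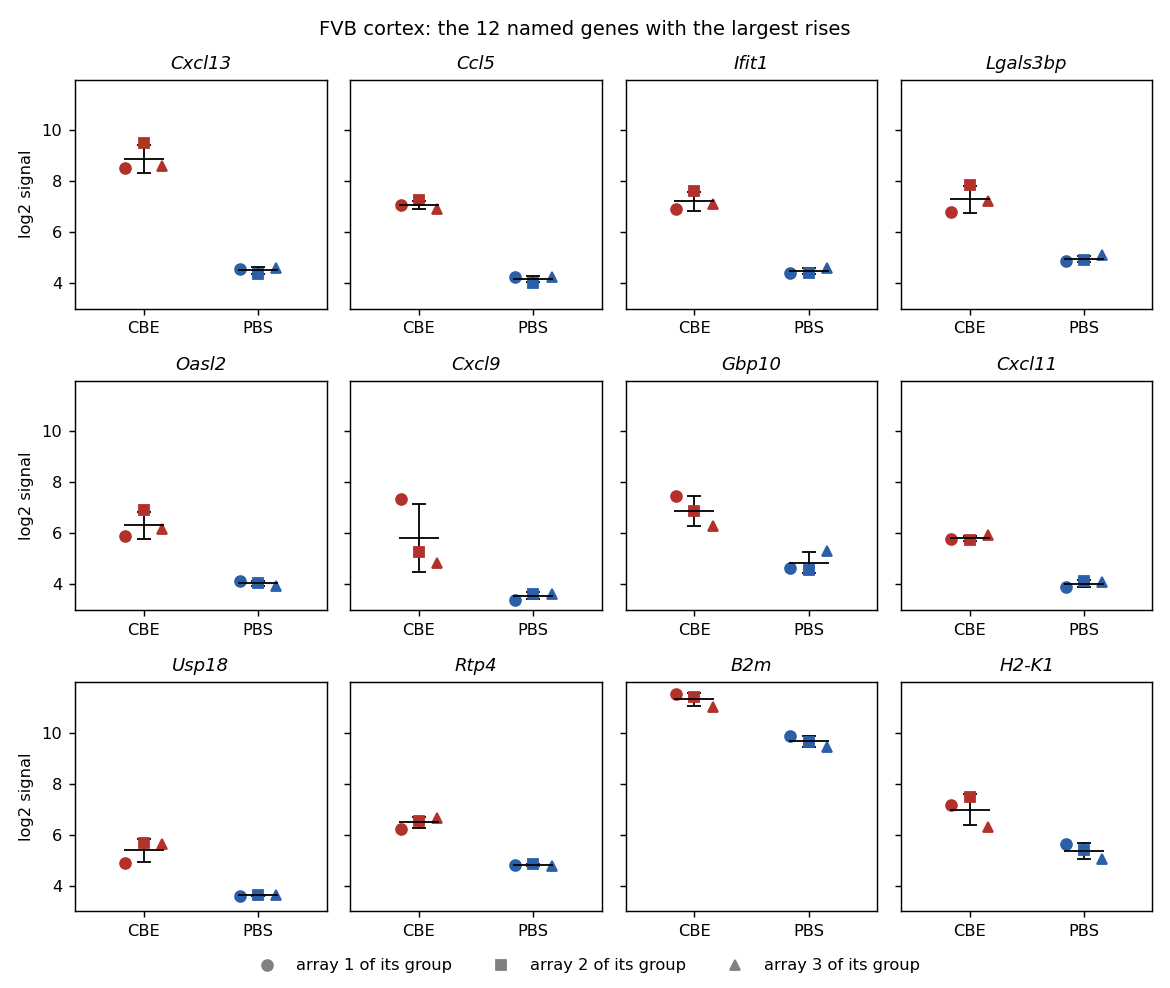
Log2 signal (vertical) is shown for the 12 named genes with the largest rises, with CBE arrays (red) left of PBS arrays (blue) in each panel. Symbols mark arrays 1 to 3 of each group, and the line and bars give mean ± SD (n = 3); no panel shows overlap, and the 3 CBE points of Cxcl9, at 7.33, 5.25 and 4.85, are the most spread.

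Interferon-inducible GTPases attack membranes that enclose pathogens, and interferon gamma is a strong inducer of them. Gbp10, a guanylate-binding protein, read 7.46, 6.87 and 6.30 in CBE, against 4.65, 4.58 and 5.32 in PBS. CBE array 1 was the highest, PBS array 3 came closest to the CBE range, and the log2 difference was 2.03 ± 0.29 (SE, n = 3 each, adjusted p = 0.0016, limma). Igtp, an immunity-related GTPase, read 6.02, 5.48 and 5.52 in CBE, against 4.41, 4.26 and 4.06 in PBS (adjusted p = 0.00384, limma). Gbp7 averaged 7.56 ± 0.10 in CBE and 6.24 ± 0.28 in PBS, and Gbp3 averaged 5.83 ± 0.26 in CBE and 4.57 ± 0.05 in PBS (SD, n = 3 each; log2 differences 1.32 and 1.27, adjusted p = 0.0111 and 0.0203, limma). Gbp7 and Gbp3 are neighbours on chromosome 3 with no protein-coding gene between them, and members of this family resemble each other in sequence, so the signal of one may include that of another. Without FVB PBS array 1, Gbp3 had an adjusted p of 0.121 (limma). In all, 4 of the 13 measured GTPases rose with all arrays and 6 without C3H CBE array 1. All 13 had a difference above 0, and the median of 0.93 was the highest of the 50 lists. Iigp1, another immunity-related GTPase, gave 6.60, 6.20 and 5.78 in CBE, against 4.36, 4.03 and 4.47 in PBS, without overlap (log2 difference 1.91, adjusted p = 0.0541 with all arrays and 0.00659 without C3H CBE array 1, limma).

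In the mouse reference genome, the stretch of DNA before the start of several of these genes holds the ISRE core. RefSeq windows (GRCm38.p6) covering the 250 bases before a gene's start were found for 21 of the 30 genes. Both strands were searched for GAAANNGAAA, which reads TTTCNNTTTC on the other strand. It occurred in 9 of these 21 genes (42.86%), and in 577 of the 16990 measured genes that have a window (3.40%). A GAS-like motif, TTCNNNGAA, occurred in 2 of the 21 (9.52%) and in 7.82% of the measured genes. An NF-kappaB motif, GGGANTTTCC, occurred in 1 of the 21 (4.76%), B2m, and in 0.46% of the measured genes. Some motif letters can be shared, since overlapping matches were allowed. Of the GTPase list, 6 of the 13 genes had a window and all 6 held the ISRE core, while 4 of the 6 (66.67%) held the GAS-like motif. The stretches below, 5′ to 3′ on the gene's own strand, show the match (capitals) with up to 25 bases on each side, for an antiviral gene, the Isg15 gene, a chemokine, a GTPase of each family and an antigen presentation gene.
Ifit1, chr19:34640760-34640838, plus strand: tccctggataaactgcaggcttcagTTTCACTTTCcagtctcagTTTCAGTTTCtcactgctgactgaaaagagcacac
Isg15, chr4:156200850-156200921, minus strand: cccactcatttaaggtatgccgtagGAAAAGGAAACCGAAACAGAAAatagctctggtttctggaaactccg
Cxcl10, chr5:92349068-92349127, minus strand: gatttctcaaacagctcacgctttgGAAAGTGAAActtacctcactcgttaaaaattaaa
Gbp3, chr3:142559974-142560039, plus strand: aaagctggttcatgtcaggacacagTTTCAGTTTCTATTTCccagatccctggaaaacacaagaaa
Igtp, chr11:58199497-58199555, plus strand: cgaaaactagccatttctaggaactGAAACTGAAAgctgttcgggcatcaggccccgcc
B2m, chr2:122147523-122147582, plus strand: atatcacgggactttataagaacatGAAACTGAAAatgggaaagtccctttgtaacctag
Ifit1 carried 2 separate matches, Isg15 3 overlapping ones and Gbp3 2 overlapping ones, and the remaining genes shown carried 1 each. Ctss, Gbp7 and Rsad2 were the other 3 of the 9. A match describes the letters in the window and is not a measured binding site. The windows are reference sequence, and the DNA of the FVB mice was not read.

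The genes that would send and relay an interferon signal gave no call with all arrays. None of 16 interferon ligands and receptors passed the threshold (limma, list median 0.06, 13 of 16 above 0). At an unadjusted limma p under 0.05, 1 was higher and 0 were lower. The members with the smallest p were Ifngr1 at 0.23 and Ifna2 at 0.27 (adjusted p = 0.794 and 0.848, limma). Ifnb1, the main type I interferon of the brain, stood at 3.29, 3.33 and 3.38 in CBE, against 3.41, 3.26 and 3.46 in PBS, and Ifng, encoding interferon gamma, at 3.68, 4.01 and 3.67 in CBE, against 3.70, 3.74 and 3.82 in PBS. These values overlap and lie at the low end of the scale, and the 95% intervals of the log2 differences were -0.20 to 0.11 for Ifnb1 and -0.16 to 0.23 for Ifng. Nor did any of 15 Stats, Irfs and brakes pass (list median 0.14, 12 of 15 above 0, 5 higher and 1 lower unadjusted). The 3 CBE arrays lay above the 3 PBS arrays in 7 of these 15 and below in 1, against 5.08% and 5.95% of all genes. Irf7, the factor that amplifies type I interferon production, gave 4.94, 5.84 and 5.25 in CBE, against 3.87, 4.13 and 4.28 in PBS (log2 difference 1.25, adjusted p = 0.106 with all arrays and 0.000388 without C3H CBE array 1, limma), and Stat3, which relays signals of the interleukin-6 family, gave 0.36 (adjusted p = 0.0743 with all arrays and 0.0108 without, limma). These 2 rose without that array.

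Of 24 pattern sensors and their adaptors, 1 rose. Casp1, the inflammasome protease that activates interleukin-1 beta, read 5.53, 5.43 and 5.40 in CBE, against 4.38, 4.55 and 4.67 in PBS (log2 difference 0.92, adjusted p = 0.00499, limma). Without FVB PBS array 1 its difference was 0.85 and its adjusted p 0.0559 (limma), so it did not pass. The list median was 0.18, with 21 of 24 differences above 0, and 2 members rose without C3H CBE array 1. Ifih1, a sensor of long double-stranded RNA, had a difference of 0.91, at an adjusted p of 0.128 with all arrays and 0.0024 without C3H CBE array 1 (limma).

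Chemokines held the highest single rises: 7 of 30 measured ligands rose with all arrays and 8 without C3H CBE array 1. The list median was 0.06. Cxcl13, which draws B cells through the receptor Cxcr5, read 8.51, 9.49 and 8.61 in CBE, against 4.55, 4.35 and 4.59 in PBS, 20.7-fold higher in CBE (log2 difference 4.37 ± 0.36 SE, n = 3 each, adjusted p = 1.09e-06, limma). Ccl5, an attractant of T cells and monocytes, read 7.06, 7.24 and 6.93 in CBE, against 4.23, 4.01 and 4.23 in PBS, 7.56-fold higher in CBE (adjusted p = 1.51e-05, limma). In both genes the gap between groups exceeded 2 log2 units, and the PBS values lay near the median of all probe sets. Cxcl9, Cxcl10 and Cxcl11 share the receptor Cxcr3, which activated T cells carry. Cxcl9 read 7.33, 5.25 and 4.85 in CBE, against 3.40, 3.62 and 3.64 in PBS, Cxcl10 read 4.83, 5.38 and 5.38 in CBE, against 3.72, 3.69 and 3.62 in PBS, and Cxcl11 read 5.76, 5.74 and 5.92 in CBE, against 3.89, 4.11 and 4.10 in PBS. Cxcl11 was nearly level across the CBE arrays, whereas Cxcl9 was far higher on CBE array 1 than on the other CBE arrays (SD 1.33). Their log2 differences were 2.26 for Cxcl9, 1.52 for Cxcl10 and 1.78 for Cxcl11 (adjusted p = 0.00381, 0.0016 and 8.01e-05, limma). Fitted on the 6 FVB arrays alone, Cxcl9 had an adjusted p of 0.303 (limma), and without FVB CBE array 1 its log2 difference was 1.497. Ccl12, an attractant of monocytes, and Cxcl16, a membrane-bound ligand of Cxcr6, rose by 1.12 and 0.80 on the log2 scale (adjusted p = 0.00613 and 0.0266 with all arrays, 0.0559 and 0.221 without FVB PBS array 1, limma).

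The remaining ligands gave little. Ccl2, a close relative of Ccl12, read 3.91, 3.67 and 3.94 in CBE, against 3.87, 3.70 and 3.64 in PBS, overlapping. Ccl3, which attracts macrophages, averaged 5.21 ± 0.10 in CBE and 3.80 ± 0.21 in PBS (SD, n = 3 each), without overlap. Its log2 difference of 1.40 had an adjusted p of 0.523 with all arrays and 5.42e-05 without C3H CBE array 1 (limma). Ccl2 and Ccl3 were chosen after their values were seen. None of 16 chemokine receptors passed (limma, list median 0.00, 0 higher and 2 lower unadjusted), and the 2 with the smallest p were Ackr1, a chemokine scavenger, at -0.23 and Cxcr1 at -0.17. Cxcr3 had a difference of 0.04 and Cxcr5 of -0.09, with values from 3.29 to 4.10 in CBE and from 3.44 to 3.95 in PBS across both genes. None of 21 inflammatory cytokines passed (list median 0.09, 0 in either direction unadjusted), with Il1rn at 0.20 and Il1a at 0.29.

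In MHC class I presentation, the light chain and 2 heavy chains rose. B2m, the light chain of every class I molecule, read 11.51, 11.40 and 11.01 in CBE, against 9.88, 9.65 and 9.45 in PBS, 3.13-fold higher in CBE from one of the brightest PBS levels among the 30 genes (adjusted p = 0.0016, limma). The heavy chain H2-K1 read 7.16, 7.49 and 6.30 in CBE, against 5.65, 5.40 and 5.03 in PBS, and the lowest CBE value, on array 3, came within 1 log2 unit of the highest PBS value (log2 difference 1.63, adjusted p = 0.0231, limma). H2-Q4, a nonclassical heavy chain, read 5.82, 5.32 and 4.90 in CBE, against 3.97, 4.35 and 4.36 in PBS (log2 difference 1.12, adjusted p = 0.00613, limma). The mean over the probe sets of H2-Q4 gave 0.58 (adjusted p = 0.106, limma), and without FVB PBS array 1 its adjusted p was 0.0767. Heavy chain genes are close copies, so H2-K1 and H2-Q4 are uncertain in identity. In this list 3 of 17 rose with all arrays and 5 without C3H CBE array 1. The median was 0.28, and 14 of 17 differences were above 0. With the 6 FVB arrays alone, B2m was the only member that rose. Of 6 immunoproteasome genes, 0 passed with all arrays and 1 without C3H CBE array 1 (limma, list median 0.27, 3 higher and 0 lower unadjusted). Psmb8, a peptide-cutting subunit, and Psme1, part of the proteasome activator, had log2 differences of 0.45 each.

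In the MHC class II pathway, 1 of 12 rose, Ctss, the cathepsin that trims the invariant chain so that peptides can be loaded. Ctss read 10.55, 10.38 and 10.27 in CBE, against 9.16, 9.13 and 8.84 in PBS (log2 difference 1.35, adjusted p = 0.0111, limma). The beta chain H2-Ab1 read 8.39, 6.22 and 5.53 in CBE, against 5.12, 4.40 and 4.72 in PBS. The groups did not overlap, CBE array 1 was more than 2 log2 units above the other CBE arrays, and the difference of 1.96 missed the threshold (adjusted p = 0.0538 with all arrays and 0.0291 without C3H CBE array 1, limma). The alpha chain H2-Aa gave 0.51 (adjusted p = 0.108, limma). The list median was 0.22, and 2 members rose without C3H CBE array 1.

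**Figure D3:**
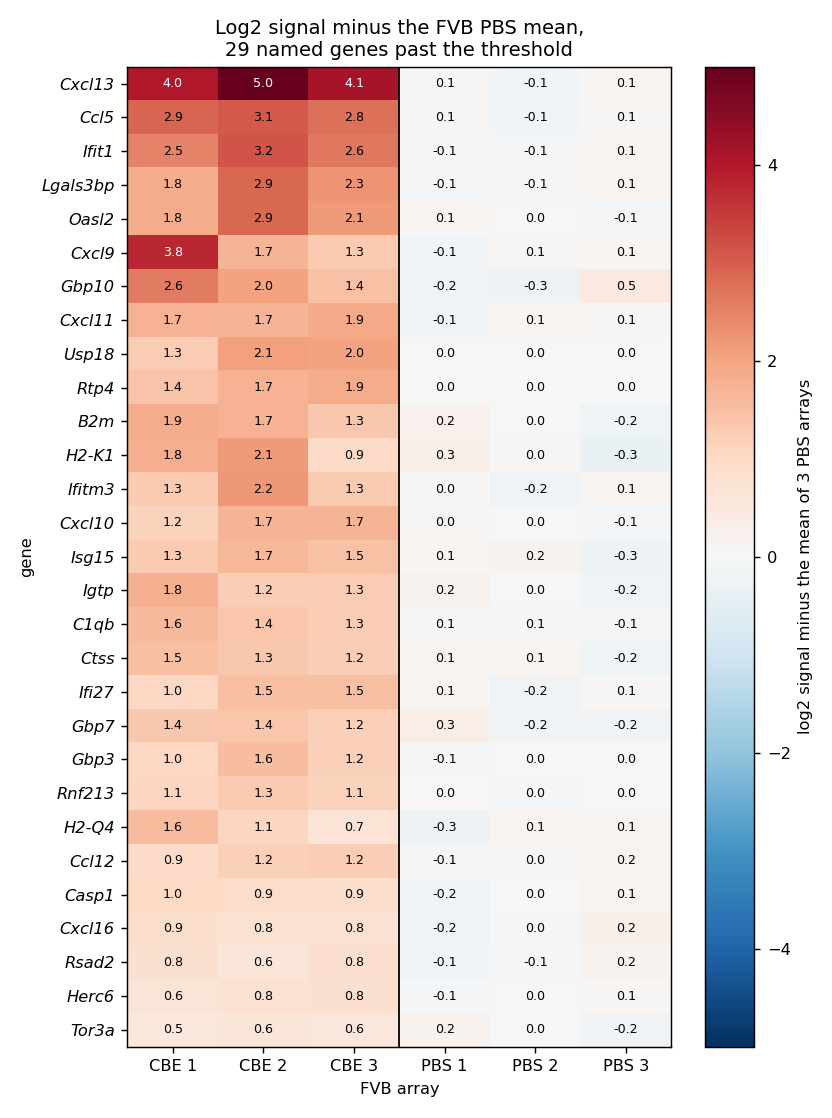
Rows are the 29 named genes past the threshold, ordered by difference, and columns are the 6 FVB arrays; cell numbers and colour give the log2 signal minus the mean of the 3 PBS arrays. Every CBE cell lies above 0, while PBS cells stay close to 0, and the darkest CBE array changes from gene to gene, such as array 1 for Cxcl9 and array 2 for Cxcl13.

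The CBE arrays did not rank alike for all gene groups. Of the 30 genes, 10 were highest on CBE array 1, 14 on array 2 and 6 on array 3. Of the 13 GTPases, 8 were highest on array 1, 4 on array 2 and 1 on array 3, and of the 12 class II genes 8 were highest on array 1, 4 on array 2 and 0 on array 3. Isg15 conjugation went another way, with 0 of 7 highest on array 1, 6 on array 2 and 1 on array 3, as did the membrane proteins and other effectors, with 5, 20 and 9 of 34. Over all genes the numbers were 6726, 8099 and 7355. These counts describe 3 arrays and were not tested.

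**Figure D4:**
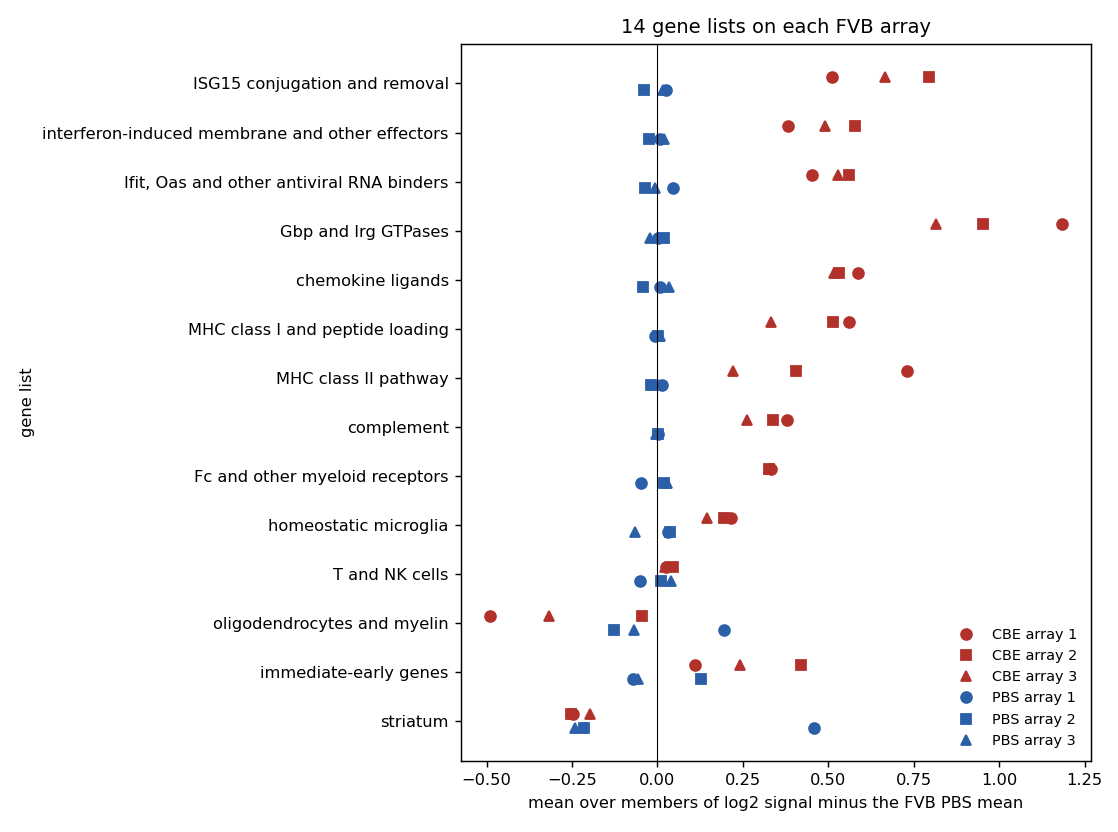
For 14 gene lists (rows), points give the mean over members of the log2 signal minus the FVB PBS mean on each array, CBE in red above PBS in blue, with symbols for arrays 1 to 3. The GTPases reach 1.18, 0.95 and 0.82 on CBE arrays 1 to 3, the class II genes 0.73, 0.41 and 0.22, and Isg15 conjugation 0.51, 0.79 and 0.67; the striatal list stands out on PBS array 1 at 0.46.

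Complement and microglial genes were higher in most members but rarely passed with all arrays. C1qb, a chain of the complement starter C1q, which microglia make in the brain, read 8.92, 8.69 and 8.56 in CBE, against 7.36, 7.35 and 7.19 in PBS (log2 difference 1.42, 2.68-fold higher in CBE, adjusted p = 0.00241, limma). It was the 1 of 25 complement genes that rose, and the list median was 0.13. Without C3H CBE array 1, 7 rose, including the partner chains C1qa and C1qc at 0.94 and 0.78, the C1 inhibitor Serping1 at 0.68 and C4b at 1.64 (adjusted p without that array = 0.00193, 0.00563, 0.0174 and 0.000562, limma). C4b read 5.90, 6.18 and 5.09 in CBE, against 4.04, 4.08 and 4.13 in PBS, and is a near copy of C4a. C1qa and C1qc were chosen after their values were seen.

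Of 32 Fc and other myeloid receptors, 0 passed with all arrays and 6 without C3H CBE array 1 (limma, list median 0.21, 29 of 32 above 0, 12 higher and 0 lower unadjusted). The members with the smallest p were the inhibitory receptors Siglecf at 0.38 and Lair1 at 0.71 (adjusted p = 0.0636 and 0.147, limma). Of 31 genes of disease-associated microglia, again 0 passed with all arrays and 6 without that array (list median 0.13, 7 higher and 0 lower unadjusted). Cst7, a cathepsin inhibitor, read 4.44, 5.35 and 4.47 in CBE, against 3.69, 3.79 and 3.75 in PBS (log2 difference 1.01, adjusted p = 0.563 with all arrays and 0.00997 without, limma). Gpnmb is a glycoprotein of lipid-laden macrophages and a marker in Gaucher disease. It read 4.04, 3.82 and 3.88 in CBE, against 3.89, 4.05 and 4.05 in PBS, with overlap. The 95% interval of its log2 difference was -1.17 to 0.99. This interval uses the spread pooled over the arrays of all strains, and the FVB values themselves ran only from 3.82 to 4.05. Its width therefore does not describe the spread among the FVB arrays. Cybb, the subunit of the phagocyte oxidase that makes superoxide, read 5.29, 5.47 and 5.07 in CBE, against 3.85, 4.10 and 3.93 in PBS, without overlap (log2 difference 1.32, adjusted p = 0.344 with all arrays and 0.000329 without, limma), and was the 1 of 6 oxidase genes that rose without that array.

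Genes of resting microglia gave no call with all arrays. Of 19 homeostatic microglia genes, 0 passed with all arrays and 1 without C3H CBE array 1 (limma, list median 0.15, 16 of 19 above 0, 5 higher and 0 lower unadjusted). The mean of this list relative to PBS was 0.15 to 0.22 on the CBE arrays and -0.07 to 0.04 on the PBS arrays, so it was higher in CBE alongside the complement and myeloid lists, and its part in their differences was not tested. P2ry12, a receptor of resting microglia, read 8.87, 8.56 and 8.57 in CBE, against 8.70, 8.67 and 8.57 in PBS, and the fractalkine receptor Cx3cr1 read 7.34, 7.17 and 7.21 in CBE, against 7.34, 7.29 and 7.06 in PBS. Both overlapped. The growth factor receptor Csf1r read 8.84, 8.85 and 8.66 in CBE, against 8.36, 8.48 and 8.39 in PBS (log2 difference 0.38, adjusted p = 0.573, limma). P2ry12 and Cx3cr1 are named as defining markers.

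Markers of blood leukocytes stayed low in both groups. Of 21 T and NK cell genes, 0 passed (limma, list median 0.03, 1 higher and 0 lower unadjusted), and the list mean relative to PBS was 0.02 to 0.04 on CBE arrays and -0.05 to 0.04 on PBS arrays. The T cell receptor chains Cd3d, Cd3e and Cd3g stood between 3.39 and 3.88 in CBE and between 3.37 and 3.89 in PBS. The members with the smallest p were Cd2 at 0.17 and Cd3g at 0.13. None of 11 B and plasma cell genes passed (list median 0.00, 0 in either direction unadjusted), and the B cell marker Ms4a1 read 3.60, 3.77 and 3.62 in CBE, against 3.70, 3.74 and 3.76 in PBS. Of 18 monocyte and neutrophil genes, 0 passed with all arrays (list median 0.01, 2 higher and 2 lower unadjusted). Csf3r, the receptor for granulocyte growth factor, which microglia also carry, gave 0.59 (adjusted p = 0.127 with all arrays and 0.0176 without C3H CBE array 1, limma), and Plac8 gave 0.26. S100a8, an abundant neutrophil gene, read 3.31, 3.38 and 3.37 in CBE, against 3.31, 3.37 and 3.36 in PBS.

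Reactive astrocyte genes showed 1 rise among 30 with all arrays, Cxcl10, which also stands among the chemokines. The list median was 0.17, with 24 of 30 above 0, and 5 members rose without C3H CBE array 1. Gfap, the intermediate filament that defines reactive astrocytes, read 8.28, 8.02 and 7.78 in CBE, against 6.73, 6.85 and 6.53 in PBS. The groups did not overlap, and the log2 difference of 1.32 was just outside the threshold with all arrays (adjusted p = 0.0501) and inside it without C3H CBE array 1 (adjusted p = 0.00908, limma). Serpina3n, another marker of astrocyte reactivity, read 9.70, 9.76 and 9.60 in CBE, against 9.61, 9.54 and 9.67 in PBS, with overlap and a difference of 0.08. None of 16 general astrocyte genes passed (median -0.03, 0 in either direction unadjusted).

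Lysosomal genes gave 1 call with all arrays. Among 18 cathepsins and other lysosomal proteases, Ctss was the 1 that rose with all arrays, and 4 rose without C3H CBE array 1 (list median 0.16, 14 of 18 above 0, 7 higher and 1 lower unadjusted). The list mean relative to PBS was 0.24 to 0.34 on the CBE arrays and -0.05 to 0.07 on the PBS arrays. Of 41 lysosomal hydrolases and membrane proteins, 0 passed with all arrays and 3 without it (limma, list median 0.01, 3 higher and 2 lower unadjusted). Cd68, a membrane protein of phagocyte lysosomes, read 6.54, 6.61 and 6.55 in CBE, against 5.96, 5.74 and 5.74 in PBS, without overlap (log2 difference 0.76, adjusted p = 0.684 with all arrays and 0.000251 without, limma). Man2b1, which removes mannose from glycoproteins, gave 0.76, and Slc11a1, a metal transporter of phagocytes, gave 0.60 (adjusted p = 0.187 and 0.25 with all arrays, 0.00131 and 0.0024 without, limma).

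Genes of glucosylceramide and ganglioside metabolism, the pathway that CBE blocks, gave no call among 31 (limma, median -0.02, 0 higher and 2 lower unadjusted). Gba2, the glucosylceramidase outside the lysosome, read 8.66, 8.79 and 8.70 in CBE, against 8.76, 8.84 and 8.73 in PBS, and Ugcg, the enzyme that makes glucosylceramide, averaged 9.02 ± 0.15 in CBE and 9.04 ± 0.04 in PBS (SD, n = 3 each). The groups overlapped for both, and the 95% intervals of the log2 differences were -0.22 to 0.09 for Gba2 and -0.23 to 0.19 for Ugcg. The smallest p in this list belonged to Galc, which degrades galactosylceramide of myelin, at -0.35, and to Gltp, a glycolipid carrier, at -0.42 (adjusted p = 0.638 and 0.667, limma). Of 24 cholesterol and fatty acid synthesis genes, 0 passed while 22 lay below 0 (median -0.13, 0 higher and 5 lower unadjusted), with Stard4, a sterol carrier, at -0.34 and Hmgcs1, an early enzyme of the pathway, at -0.23. The mean of this list relative to PBS was -0.21, -0.08 and -0.11 on CBE arrays 1 to 3. On PBS arrays 1 to 3 it was 0.07, 0.01 and -0.09, so the groups overlapped. In a list of 11 genes around the liver X receptor, Ch25h, which makes an oxysterol with antiviral activity, gave 1.05 (adjusted p = 0.722 with all arrays and 0.0147 without C3H CBE array 1, limma), and the list median was 0.00.

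No list of neurons, oligodendrocytes or their precursors held a gene past the threshold with all arrays. Excitatory cortical neurons (16 genes, median 0.02), inhibitory interneurons (15, median 0.09) and pan-neuronal and synaptic genes (18, median -0.01) had 0, 1 and 0 genes at an unadjusted p under 0.05 in the order given, the 1 being the vesicular GABA transporter Slc32a1 at -0.26. Of 21 immediate-early genes, which neurons switch on when active, 20 lay above 0 (median 0.23, 1 unadjusted). The mean of these 21 relative to PBS was 0.11, 0.42 and 0.24 on CBE arrays 1 to 3. On PBS arrays 1 to 3 it was -0.07, 0.13 and -0.06, so the groups overlapped. CBE array 2 was the highest CBE array for 12 of the 21, and for 8099 of all 22180 genes. The clock gene Per1 had a difference of 0.47, and Arc, a synaptic plasticity gene, read 10.29, 10.83 and 10.17 in CBE, against 9.86, 9.74 and 9.57 in PBS, without overlap (log2 difference 0.70, adjusted p = 0.827, limma). All 15 oligodendrocyte and myelin genes lay below 0 (median -0.27, 1 lower unadjusted), with the myelin regulator Myrf at -0.44 and the myelin enzyme Cnp at -0.36. Without FVB PBS array 1 the myelin median was -0.17, and 13 of the 15 genes were highest on 1 CBE array, array 2. Precursors of oligodendrocytes had a median of -0.14 over 11 genes (2 lower unadjusted). Their mean relative to PBS was -0.29, 0.05 and -0.20 on CBE arrays 1 to 3. On PBS arrays 1 to 3 it was 0.12, 0.05 and -0.17, so the groups overlapped. The striatal list, 9 genes, had a median of -0.20 with all arrays and -0.02 without FVB PBS array 1.

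Vessel and barrier genes also gave no call with all arrays. Endothelial genes had a median of -0.15 over 15 genes (0 higher and 4 lower unadjusted), and -0.07 without FVB PBS array 1, with the receptor Tie1 at -0.38 and the tight junction gene Cldn5 at -0.39. Pericyte and smooth muscle genes had a median of -0.09 over 11 genes (2 lower unadjusted). Their mean relative to PBS was 0.16 on PBS array 1 and -0.07 and -0.09 on the other PBS arrays. On CBE arrays 1 to 3 it was -0.13, -0.15 and -0.15. Icam1, which lets leukocytes adhere to vessels, read 5.02, 4.95 and 4.95 in CBE, against 4.44, 4.45 and 4.40 in PBS, without overlap (log2 difference 0.54, adjusted p = 0.0712 with all arrays and 0.0295 without C3H CBE array 1, limma). Among stress and death programmes, necroptosis and death receptors had a median of 0.14 over 13 genes, 11 above 0 (2 higher and 0 lower unadjusted). The unfolded protein and integrated stress response had 0.08 over 17 genes, 12 above 0 (4 higher and 0 lower unadjusted). Apoptosis and p53 targets had a median of 0.02 over 12 genes, oxidative stress 0.03 over 14 and autophagy 0.00 over 14. Calcium handling had 0.01 over 18 and cell cycle -0.01 over 19. None of the genes in these stress and death lists passed the threshold (limma). Apoptosis, oxidative stress, autophagy, calcium handling and cell cycle had 0, 1, 0, 1 and 1 genes at an unadjusted p under 0.05.

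**Figure D5:**
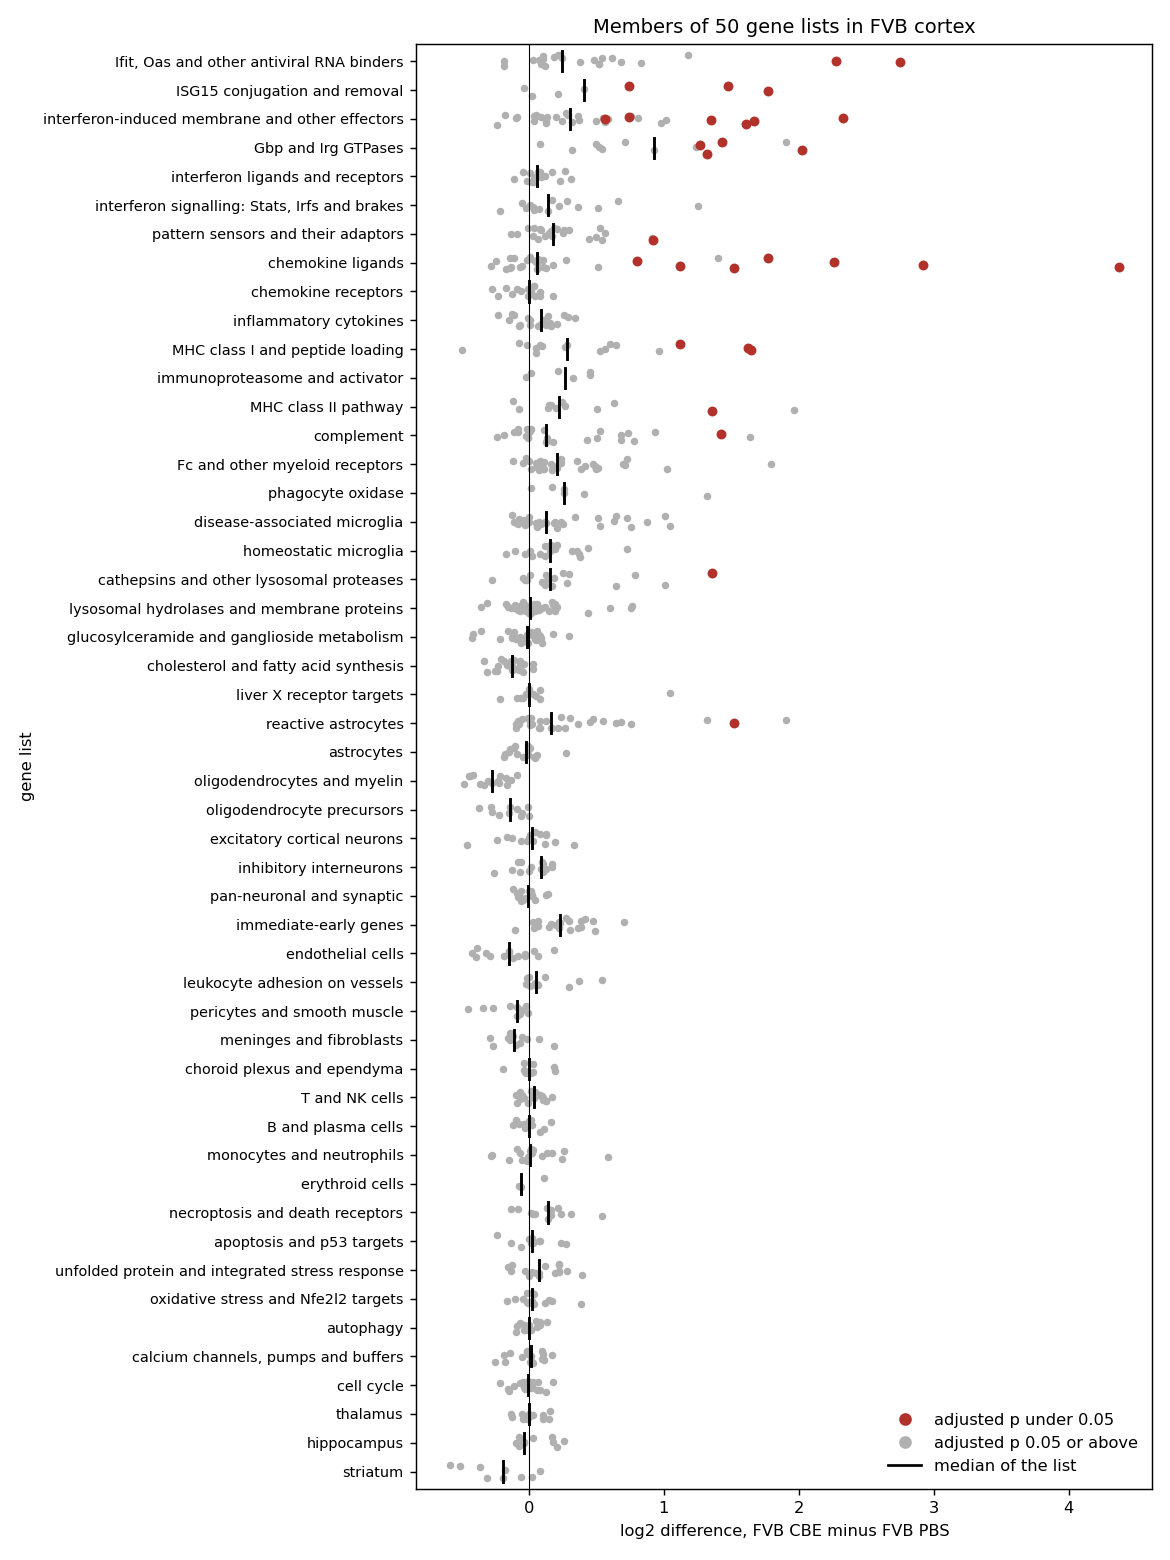
Each row is 1 of 50 gene lists and each point 1 measured member at its log2 difference between FVB CBE and FVB PBS; black bars mark list medians and red points the genes past the threshold. Red points occur in 11 lists, and the median bar lies farthest right for the Gbp and Irg GTPases, at 0.93.

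Lower in CBE, the genes nearest to the threshold had small differences. Lrp1b, a large lipoprotein receptor relative, read 7.79, 7.82 and 7.97 in CBE, against 8.37, 8.15 and 8.21 in PBS, and Kcne4, a potassium channel subunit, read 3.36, 3.45 and 3.41 in CBE, against 3.84, 3.69 and 3.71 in PBS. Neither overlapped, and the log2 differences of -0.38 and -0.34 missed the threshold with all arrays (adjusted p = 0.0712 and 0.0925, limma) and passed it without C3H CBE array 1 (0.0386 and 0.0401). Next by p came Tmem35b at -0.44, the integrin subunit Itga1 at -0.50, Sypl at -0.29, Lactb2 at -0.32, Ccdc85a at -0.39 and the laminin subunit Lama2 at -0.33, all with an adjusted p of 0.107 or more (limma).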

How the data were processed

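The deposited table holds a log2 signal for 41034 probe sets on each of 24 arrays. The authors made these log2 values with Partek and RMA (robust multi-array average), per the submitters' processing notes. Neither tool's version is given in the sources used here, and the base of the logarithm was inferred from the range of the values. Per the labels' protocols, a 1 mm coronal slice holding the cortex was frozen and 100 ng of total RNA was labelled with the GeneChip WT PLUS kit (Affymetrix), so neighbouring regions may be included. RMA evens out array distributions, which can shrink a shift common to all genes. Scanner files were not used here. A genome build, GRCm38.p6, was used for the RefSeq windows before gene starts but not for the signal values.

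Of the probe sets, 23521 had 1 gene symbol, 1814 several and 15699 none given. For 1082 genes with several probe sets, the one with the highest mean over 24 arrays was taken, leaving 22180 genes. Dim probe sets were kept. limma 3.58.1 in R 4.3.3 fitted 8 group means (lmFit, contrast FVB CBE minus FVB PBS, eBayes), with 16 residual and 5.10 prior degrees of freedom and Benjamini-Hochberg adjustment over all genes at 0.05. The median SE of a log2 difference was 0.10. Array values carry no molecule count; the number of arrays limits the precision. The code was tested on simulated data.

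Genes and lists were chosen with earlier results of these data known. Of 963 list entries, 866 were measured. Every named gene past the threshold was named, otherwise the members of each list with the smallest p, a fixed set around the disease and the genes next by p; predicted genes, clones and small RNAs were counted only. Eif2ak2, Ifih1, H2-Aa, Cxcr3, Cxcr5, Rgs9, Ccl2, Ccl3, C1qa and C1qc were added after their values were seen. Alternatives were the arrays in the fit, the replicate number as a block, the variance model, the scaling, the probe-set rule, a filter on dim genes and leaving out each array.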

Additional observations from a re-analysis of the deposited data

Results flagged for a closer look

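Some probe sets outside the 22180 genes also passed the threshold in FVB. All 41034 probe sets were fitted (limma, Benjamini-Hochberg), and 41 passed an adjusted p of 0.05. Among the 17513 probe sets with several symbols or none given, 14 passed (0.0799%), 13 higher in CBE and 1 lower. Of the 14, 8 have several symbols and 6 none given, so they are reported by number. Probe set 17411147 read 7.44, 8.24 and 7.64 in CBE, against 4.56, 4.39 and 4.26 in PBS, a log2 difference of 3.37. Probe set 17350982 read 8.44, 6.86 and 6.31 in CBE, against 3.94, 4.26 and 3.95 in PBS, a log2 difference of 3.15 with array 1 the highest. Probe set 17359952 read 6.26, 5.29 and 5.82 in CBE, against 7.81, 7.14 and 7.82 in PBS, a log2 difference of -1.80. Groups of 3 arrays are too small for a test of single outlying arrays.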

How the results depend on the processing

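The count of 30 genes was 58 with only the 6 FVB arrays and 85 without C3H CBE array 1. It ran from 25 to 35 over the 6 fits that left out 1 FVB array, and from 30 to 85 over the 18 that left out an array of another strain (up to 36 apart from C3H CBE array 1). The other alternatives gave 20 (ordinary linear model) to 42 (quantile normalization). None of the 30 genes changed sign under any of these alternatives, but this outcome was largely fixed in advance. The log2 difference comes from the FVB arrays alone, so most alternatives left it as it was. In each of the 30 genes the 3 CBE arrays lay above the 3 PBS arrays, so leaving out 1 of them could not reverse it. Of the 30 genes, 15 passed in every alternative that gave a value and 19 in all 6 FVB leave-outs. Cxcl16 and Gbp3 passed in 1 of these 6, and Gbp7, H2-K1, Herc6 and Ifitm3 in 2. The cause was not tested. Replicate numbers shared by CBE and PBS gave correlations of 0.00, 0.19 and 0.06 between same-numbered arrays, and of -0.20 to 0.14 between differently numbered ones. These few values cannot settle pairing, and the arrays were not taken as pairs. With the number as a replicate block, 34 genes passed over all 24 arrays and 40 over the 6 FVB arrays.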
